A study of Mus musculus with 6 samples.

Results

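The late course of vemurafenib-treated wounds was followed by setting the day 14 library against the day 6 library of the same arm, 2 of the 6 RNA sequencing libraries of the series. Both libraries came from wounded skin, cut by full-thickness incisions in the shaved back of female C3Hf/Kam mice of 8 to 10 weeks, to which the BRAF inhibitor vemurafenib (2 mg in DMSO and PBS) was applied every other day. The vehicle arm (DMSO in PBS, called no treatment in the sample labels) has 1 library for each of days 2, 6 and 14, as does the vemurafenib arm. Values are FPKM, in which the fragments of a gene are divided by its length and by the size of the library, as normalized by the program Cuffnorm. There was 1 library per side, the number of mice behind it is not stated, and FPKM carry no read number, so that the depth is unknown and the vemurafenib course itself could not be tested. Of the values above 0, 50.3% in the vemurafenib day 14 column and 52.3% in the day 6 column have more than 6 significant digits. Averages of 2 values could look so, but whether values were averaged is not stated and was not tested. In the vehicle arm the day 14 column holds 0% of such values and the day 6 column 52.9%.

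Wounded skin is first invaded by neutrophils and monocytes drawn in by chemokines, then filled with granulation tissue that fibroblasts build from collagen and vessels, while keratinocytes at the edge migrate and close the surface. Remodelling follows, in which inflammatory cells leave and matrix is broken down and rebuilt. In cells with wild-type BRAF, BRAF inhibitors can raise ERK signalling, the so-called paradoxical activation. Hair follicles around a wound can enter anagen, the growth phase in which the lower follicle makes hair keratins and the keratin-associated proteins that crosslink them.

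Among 13392 genes that averaged 1 FPKM or more, 999 (7.46%) were higher by 2-fold or more and 1949 (14.6%) lower by as much on day 14 than on day 6 with vemurafenib, on the log2(FPKM + 0.1) scale. With vehicle 1683 (12.6%) were higher and 1353 (10.1%) lower by that fold. The median log2 ratio of all genes was -0.01 with vemurafenib and 0.04 with vehicle. After scaling all libraries to 1 total of FPKM the vemurafenib split became 751 higher against 2405 lower, and the median moved to -0.22. The balance of the vehicle split turned with the scaling: 2642 higher against 868 lower after scaling to 1 total, 1336 against 1646 with upper quartile scaling and 1403 against 1576 with median of ratios scaling. Of the vemurafenib genes, 554 of the higher ones were also at least 2-fold higher with vehicle (55.5% of the vemurafenib and 32.9% of the vehicle genes). Of the lower ones 848 were shared (43.5% and 62.7%). A limma fit of all 6 libraries with terms for day and arm finds changes that both arms share, and it called 247 genes (1.84%) higher and 241 (1.8%) lower on day 14 than on day 6 at a Benjamini-Hochberg adjusted p under 0.05. All 488 were at least 2-fold apart in the same direction with vemurafenib. The fit takes the mean of the 2 arms' ratios, so this agreement was largely fixed in advance. It is no separate support for the vemurafenib course. Genes called in this common fit are said to have risen or fallen, and all other differences are values of 2 libraries. The fit rests on 2 residual degrees of freedom. Its spread is taken from how the courses of the 2 arms differ, so that the arms stand in for replicates. A gene whose arms differ much in size is thus less likely to be called. Limma called 0 genes without the vemurafenib day 14 library and 0 without the vehicle day 14 library, with 2569 and 1411 genes at an unadjusted p under 0.05.

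**Figure D1:**
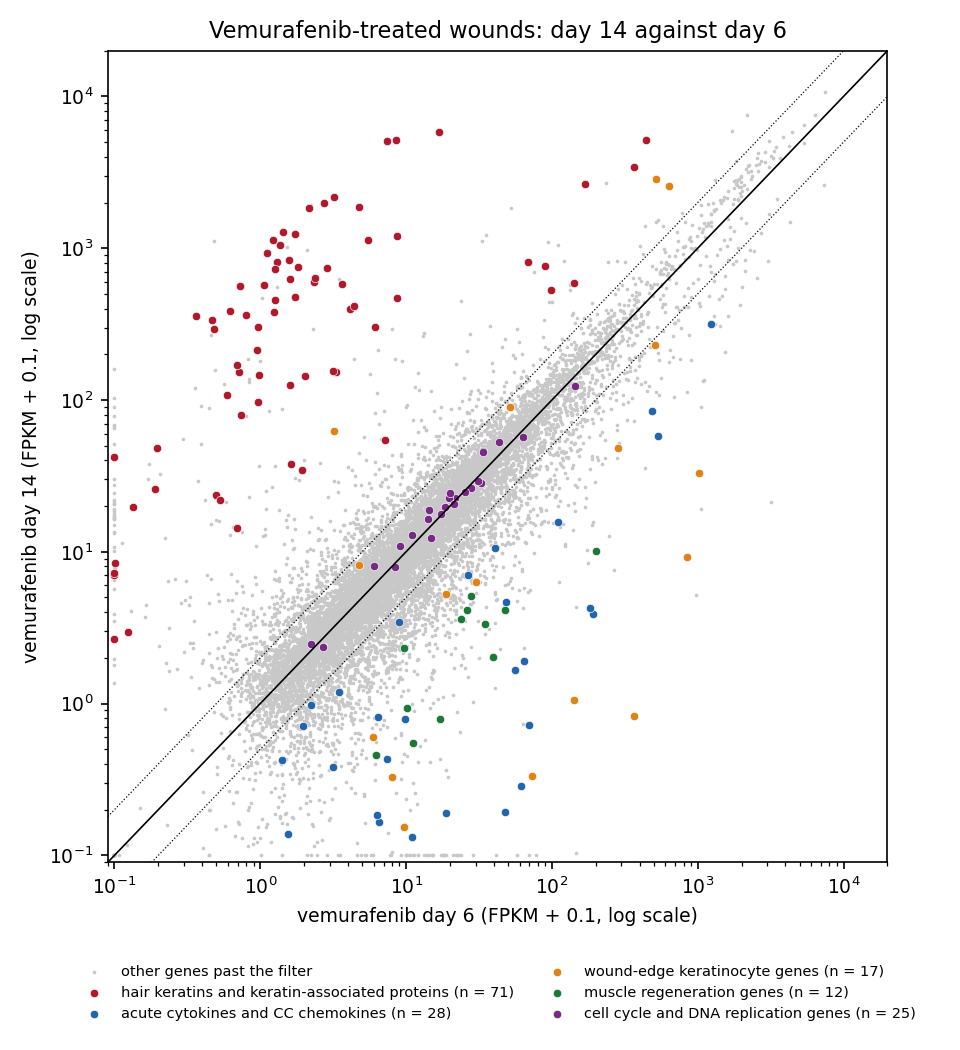
Each point is 1 gene past the filter in the vemurafenib arm, with FPKM + 0.1 on day 6 on the x axis and on day 14 on the y axis, both log scales. The solid line marks equal values and the dotted lines 2-fold. Hair genes (red) lie far above the lines, most cytokine, chemokine and muscle regeneration genes lie below them, and the 25 cell cycle genes lie between the dotted lines.

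Genes of the growing hair shaft had the highest ratios on day 14 once small RNA and histone genes were left out. All 20 hair keratins and all 51 keratin-associated protein genes past the filter were at least 2-fold higher on day 14 than on day 6, with median log2 ratios of 4.96 and 8.27 (vehicle 3.60 and 6.74). In the limma common fit 19 of the 20 and 49 of the 51 rose. Of 142 genes at least 32-fold higher, 38 were small RNA or histone genes, and 59 were named as keratins or keratin-associated proteins. Of 84 genes at least 32-fold lower, 39 were small RNA or histone genes. The 72 listed hair genes together made up 7.49% of all FPKM with vemurafenib on day 14, against 0.219% on day 6, and on day 2 they made up 0.00124%. With vehicle the shares on days 2, 6 and 14 were 0.000598%, 0.455% and 16.8%. FPKM are relative values, so that by construction a larger share of these genes leaves a smaller share for all others in the library. The sum of all FPKM was 803756 with vemurafenib on day 14 and 692634 on day 6. A share and an FPKM therefore need not move alike.

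**Figure D2:**
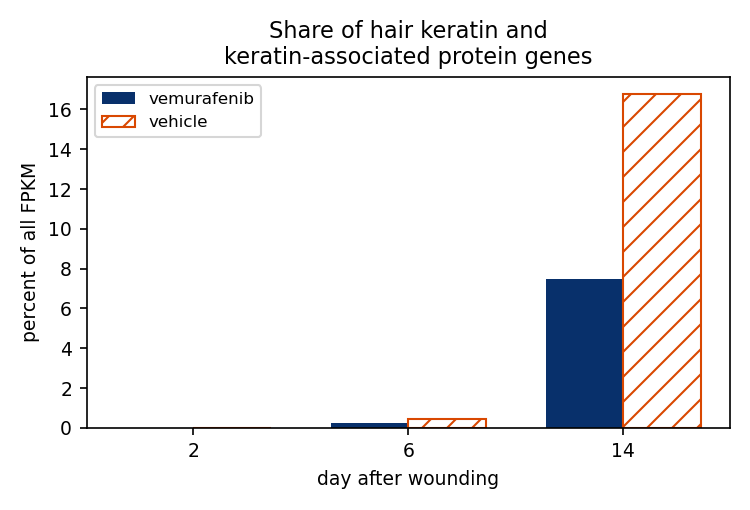
Bars give the summed FPKM of 72 hair keratin and keratin-associated protein genes as a percent of all FPKM, by day after wounding, in 1 library per bar. The vemurafenib bar of day 14 stands at 7.49% and the vehicle bar of day 14 at 16.8%, while all bars of day 2 and day 6 are under 1%.

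Among the hair keratins, those of the inner root sheath, the sleeve that moulds the shaft, were already above 100 FPKM on day 6 in several cases. Krt71, a type II keratin of that sheath, was at 5128 FPKM on day 14, against 443 FPKM on day 6. Krt25, its type I partner, was at 3442 FPKM on day 14, against 366 FPKM on day 6. Krt73 had the lowest log2 ratio of the 20, 2.07, and did not pass the common fit (limma adjusted p = 0.10). Krt34, Krt81, Krt86 and Krt33b, keratins of the hair cortex, the bulk of the shaft, had higher ratios than the sheath keratins. Other shaft keratins had lower ratios, down to 2.45 on chromosome 11. Krt34 was at 628 FPKM on day 14, against 1.49 FPKM on day 6, and was listed at 0 on day 2 (log2 ratio 8.63, vehicle 6.42, limma adjusted p = 0.00317). Krt81, Krt86 and Krt33b had log2 ratios of 8.02, 8.13 and 8.29. The 7 sheath keratins had ratios between 2.07 for Krt73 and 3.98 for Krt27, apart from Krt26 (5.53) and Krt72 (6.56).

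Of the 15 genes with the highest ratios, by a rule that left out small RNA and histone genes, all but 3 carry a Krtap name. Those 3 were 1110025L11Rik, Gm10229 and Gm10228. 1110025L11Rik stood first at 1111 FPKM on day 14, against 0.380 FPKM on day 6 (log2 ratio 11.18), and lies within a cluster of Krtap genes on chromosome 16. Krtap21-1 was at 356 FPKM on day 14, against 0.261 FPKM on day 6, and Krtap6-5 at 1140 FPKM on day 14, against 1.12 FPKM on day 6. Krtap8-1 had the highest level of the family on day 14, 5853 FPKM, against 16.6 FPKM on day 6 (vehicle 15823 FPKM on day 14 and 120 FPKM on day 6). Members of these families are close copies of each other, and reads that fit several of them can be shared between them, so single values are uncertain while the direction was common to all 51.

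The hair genes lie in clusters, given here in mm9 coordinates of GENCODE M1. At chr11:99176830-99966940, 42 of 43 genes past the filter were at least 2-fold higher on day 14, of which 30 were listed hair genes. All 17 genes past the filter at chr16:88610954-89571428 were so, and all 6 at chr7:149360437-149490408. At chr15:101261921-101632774 the count was 11 of 14. The stretches were drawn around listed hair genes, all of which were at least 2-fold higher, so these counts partly repeat the list result. Of the other genes within them, 12 of 13 were 2-fold higher on chromosome 11 and 4 of 4 on chromosome 16. On chromosome 7 it was 1 of 1, and on chromosome 15 it was 4 of 7. These others include Krt39, Krt40 and many Gm or Rik genes that lie between the Krtap genes. They are therefore not shown to lie outside the hair gene families.

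The TATA box, the letters TATAAA, was frequent in the promoters of these genes. In RefSeq windows of GRCm38.p6, from 250 bases before to 50 bases after the start and on both strands, it was found in 12 of 14 hair keratins (85.7%) and 38 of 46 keratin-associated proteins (82.6%) with a window. The share was 10.2% of 9810 genes past the filter and 15.7% of 27025 genes with a window. The 150 bases before the start are shown for Krt34 and Krtap8-1, 1 gene of each family with a large ratio, with the TATA box in capitals. It begins 31 bases before the start in Krt34 and 29 bases before it in Krtap8-1. The Krt34 window is at chr11:100041555-100041704 and the Krtap8-1 window at chr16:89487953-89488102, both on the minus strand and written 5′ to 3′.
Krt34: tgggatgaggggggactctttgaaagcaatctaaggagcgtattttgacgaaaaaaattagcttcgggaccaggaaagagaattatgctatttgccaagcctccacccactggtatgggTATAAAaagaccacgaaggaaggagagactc
Krtap8-1: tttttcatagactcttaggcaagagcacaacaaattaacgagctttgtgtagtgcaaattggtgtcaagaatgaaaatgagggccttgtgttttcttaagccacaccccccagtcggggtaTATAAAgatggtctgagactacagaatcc
A match describes these letters and was not tested as a site.

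Regulators of hair growth differed less than the structural genes. All 18 past the filter were higher on day 14 than on day 6, 10 of them at least 2-fold (median log2 ratio 1.21, vehicle 1.28). Fgf5, the growth factor that ends anagen, was at 15.9 FPKM on day 14, against 0.423 FPKM on day 6, and it rose in the common fit (log2 ratio 4.94, limma adjusted p = 0.00577), with 14.5 FPKM on day 14 and 0.816 FPKM on day 6 with vehicle. Foxn1, the transcription factor lost in nude mice, and Msx2, a homeobox factor of the hair matrix, also rose, with log2 ratios of 3.08 and 2.16. Hoxc13 and Dlx3, homeobox activators of hair keratin genes, had ratios of 2.39 and 2.41 without passing the fit. Signals that start follicle growth had smaller ratios. Shh was at 6.94 FPKM on day 14, against 6.38 FPKM on day 6, and Wnt10b at 6.32 FPKM on day 14, against 4.33 FPKM on day 6. Both had been under 1 FPKM on day 2.

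Pigment genes of melanocytes, which colour the growing shaft, were all higher on day 14, 9 of 11 at least 2-fold (median log2 ratio 1.68, vehicle 1.11). Mlana, a melanosome protein, was at 223 FPKM on day 14, against 45.1 FPKM on day 6, and Tyrp1, an enzyme of melanin synthesis, was at 37.5 FPKM on day 14, against 10.9 FPKM on day 6. Of the 11, only Tyrp1 rose in the common fit (limma adjusted p = 0.0462). The summed FPKM of the 11 genes was 615 on day 14 and 164 on day 6. In bulk tissue more cells of a type and more RNA per cell cannot be told apart, and the part of melanocyte number in the hair result was not tested. Sebaceous gland genes had a median of 0.35 (vehicle 0.37), with 3 of 12 at least 2-fold higher, among them Scd3, a fatty acid desaturase, which rose with a log2 ratio of 2.06.

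Signals of acute inflammation were lower on day 14 than on day 6. All 14 neutrophil and platelet chemokines and acute cytokines past the filter were at least 2-fold lower on day 14 than on day 6. The median was -4.59 (vehicle -1.66, 12 of 14). Cxcl2, a chemokine that draws neutrophils, was at 693, 47.4 and 0.0944 FPKM on days 2, 6 and 14, and it fell in the common fit (log2 ratio -7.93, vehicle -5.44, limma adjusted p = 0.00261). Cxcl1, its neighbour with the same action, was at 109, 61.2 and 0.186 FPKM on days 2, 6 and 14. Its ratio was -7.74 with vemurafenib and -2.35 with vehicle, whose day 6 value was 2.53 FPKM, and it did not pass the fit (limma adjusted p = 0.0753). On day 14 both arms were thus under 1 FPKM, and the arms differed in the day 6 level of Cxcl1. Il1b, the pyrogenic cytokine interleukin 1 beta, was at 0.618 FPKM on day 14, against 69.7 FPKM on day 6, and fell with a ratio of -6.60. Il6 was at 0.0852 FPKM on day 14, against 6.21 FPKM on day 6 (-5.09, vehicle -1.22). In all, 6 of the 14 fell in the common fit. The summed FPKM of the list was 777 on day 6 and 62.0 on day 14 with vemurafenib, and 241 and 72.4 with vehicle.

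**Figure D3:**
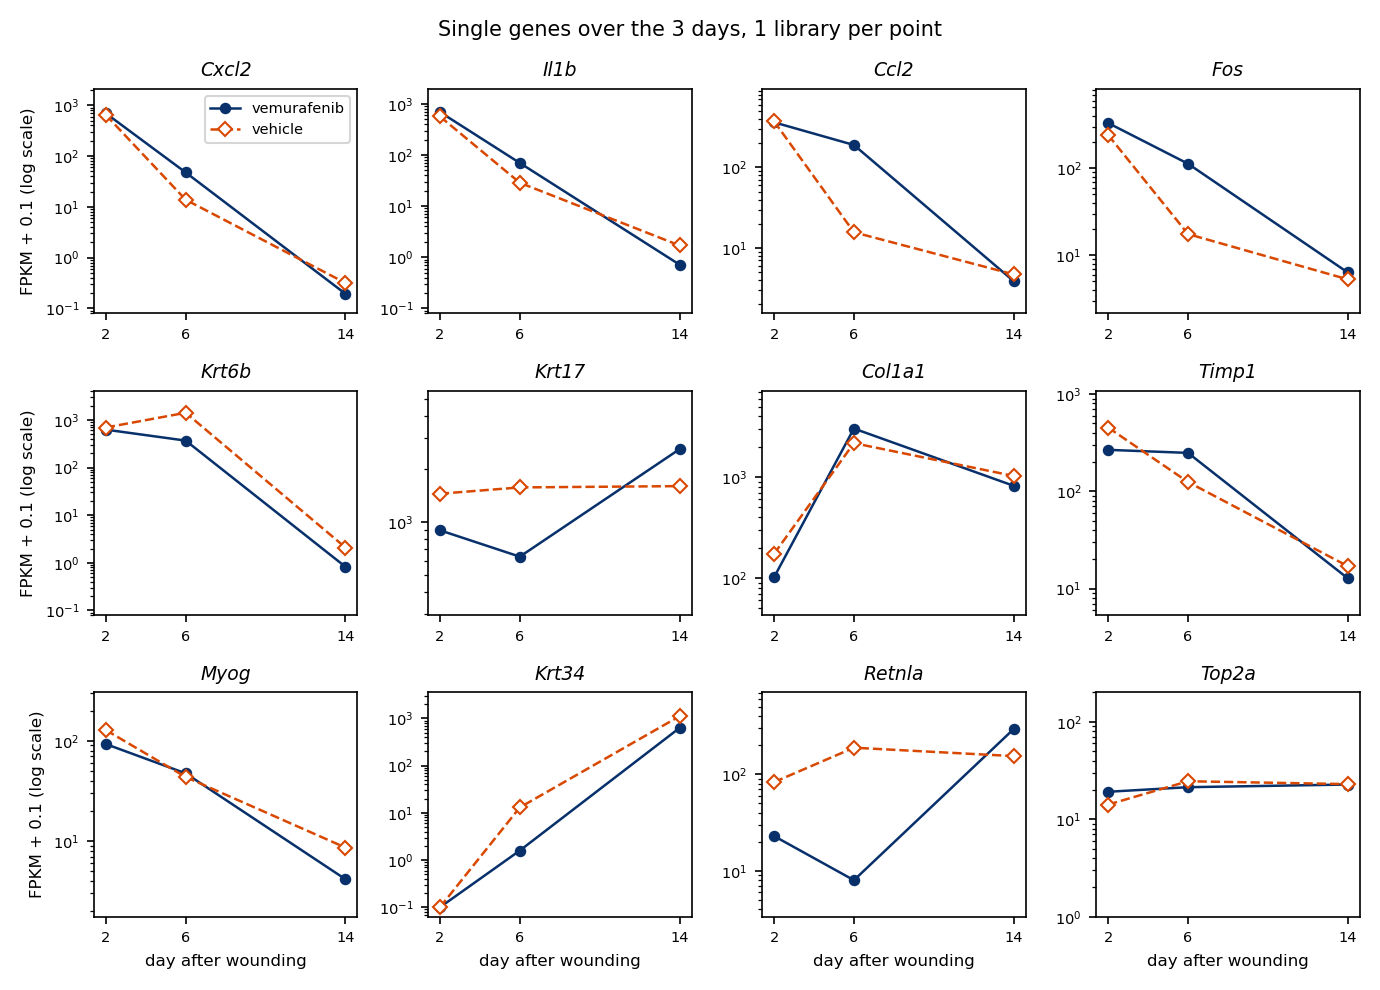
Points give FPKM + 0.1 (log scales) of 12 genes on days 2, 6 and 14 after wounding, 1 library per point, for vemurafenib (filled) and vehicle (open). Cxcl2 and Il1b stood below 1 FPKM with vemurafenib on day 14, Krt34 stood at 628 FPKM and Top2a at 22.6 FPKM.

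A group of these genes are neighbours. Cxcl5, Ppbp, Pf4, Cxcl3, Cxcl1 and Cxcl2 lie side by side at chr5:91188325-91334935 (mm9), and all 6 were at least 8-fold lower on day 14 than on day 6 (median log2 ratio -6.50, vehicle -1.92). A search for 3 or more neighbouring genes all at least 8-fold apart in the same direction gave this stretch. The shared 8-fold is thus the rule of the search and no separate result. Pf4, a platelet chemokine that macrophages also make, kept a higher level than the other 5, 57.9 FPKM on day 14, against 536 FPKM on day 6. An NF-kB consensus, the site of a main inflammatory transcription factor, was found in 4 of 11 promoter windows of the acute list (36.4%), in 6.43% of windows of genes past the filter and in 5.14% of all. It was not particular to this list. The share was 40% for basal keratinocyte genes, 26.3% for immediate early genes and 25% for CC chemokines, and 0% for neutrophil markers. The windows of Cxcl1 (chr5:90891095-90891244) and Cxcl2 (chr5:90903749-90903898), both on the plus strand of GRCm38.p6, are shown because these 2 genes had the lowest ratios of the cluster. Capitals mark the match, which begins 71 bases before the start in Cxcl1 and 97 bases before it in Cxcl2.
Cxcl1: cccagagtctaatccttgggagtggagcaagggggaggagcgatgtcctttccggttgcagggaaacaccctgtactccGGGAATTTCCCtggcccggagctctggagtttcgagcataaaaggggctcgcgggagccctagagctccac
Cxcl2: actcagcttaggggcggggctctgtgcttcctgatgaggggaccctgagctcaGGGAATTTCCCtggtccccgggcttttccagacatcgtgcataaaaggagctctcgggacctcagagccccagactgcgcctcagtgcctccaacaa
The match is a description of letters and says nothing of the factor.

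CC chemokines, which draw monocytes and other leukocytes, were all at least 2-fold lower on day 14 than on day 6, 14 of 14 with a median of -2.93 (vehicle -1.12, 8 of 14). Their summed FPKM was 2464 on day 6 and 455 on day 14 with vemurafenib, and 1235 and 593 with vehicle. Ccl2, the main monocyte attractant, was at 3.78 FPKM on day 14, against 190 FPKM on day 6 (log2 ratio -5.62, vehicle -1.74). Ccl7, a close relative, had a ratio of -5.42 (vehicle -1.42), and neither passed the common fit. Ccl3 and Ccl4, made by activated macrophages, fell with ratios of -5.07 and -5.06, and Ccl5, made by T cells, fell with -1.92. Ccl17, a dendritic cell chemokine, was at 0.284 FPKM on day 14, against 3.04 FPKM on day 6, while with vehicle its log2 ratio was 1.38. That difference between arms was not tested.

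Markers of neutrophils and macrophages, cells that make and answer these signals, were lower too. All 15 neutrophil markers were at least 2-fold lower on day 14 than on day 6 (median -4.38, vehicle -2.01), and 10 fell in the common fit. S100a9, a calcium-binding protein that fills neutrophils, was at 4248, 265 and 7.52 FPKM on days 2, 6 and 14 (limma adjusted p = 0.00163). Mmp9, a gelatinase, was at 0.551 FPKM on day 14, against 23.5 FPKM on day 6, with nearly equal ratios in both arms (-5.18, vehicle -5.14, limma adjusted p = 0.000602). The summed FPKM of the 15 markers was 67.7 on day 14 and 887 on day 6, and none was at 0 on either day. Such a sum mostly follows its most abundant members. On day 6 S100a8 and S100a9 were at 438 and 265 FPKM with vemurafenib and at 628 and 306 FPKM with vehicle. Csf3r went the other way, at 9.36 FPKM with vemurafenib and 3.45 FPKM with vehicle. The sum was not tested as a measure of neutrophil number. Of 23 macrophage and monocyte markers 22 were at least 2-fold lower (median -2.13, vehicle -1.24, 14 of 23), with a sum of 1674 on day 14 and 5135 on day 6. Nos2, the inducible nitric oxide synthase, was at 0.201 FPKM on day 14, against 11.1 FPKM on day 6. Marco, a scavenger receptor, was at 0.212 FPKM on day 14, against 5.97 FPKM on day 6. Of the 23, only Cd14 and Aif1 fell in the common fit, and the part of cell number in the chemokine result was not tested.

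Macrophage genes did not move as one. Gpnmb, a glycoprotein of lipid-laden macrophages and of melanocytes, was at 145 FPKM on day 14, against 138 FPKM on day 6 (log2 ratio 0.07, vehicle 2.04). Mmp12, the macrophage elastase, was at 13.04 FPKM on day 14, against 73.3 FPKM on day 6 (-2.48, vehicle 1.44). Of 15 genes of alternatively activated and resident macrophages, 6 were at least 2-fold lower and 1 at least 2-fold higher (median -0.58, vehicle -1.22). That 1 was Retnla, a secreted product of alternatively activated macrophages that fat tissue makes too. It was at 22.9, 7.91 and 295 FPKM on days 2, 6 and 14 with vemurafenib (log2 ratio 5.20) and at 83.1, 189 and 155 FPKM with vehicle (-0.29). The day 6 value with vemurafenib was the lowest of the 6 libraries. Resident markers such as Cd163 (-1.34) and Mrc1 (-1.79) were lower on day 14, and Cd209d and Fcna were at -0.11 and -0.17. Cd209 genes are close copies and may share reads.

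Dendritic and Langerhans cell genes had a median of -1.50 (vehicle -0.83), with 8 of 10 at least 2-fold lower, and Ccr7, the receptor that guides dendritic cells to lymph nodes, fell with -3.48 (vehicle -3.12). T and NK cell markers had a median of -1.34. The granzymes Gzmb (-4.34) and Gzma (-3.22) had the lowest ratios, while the T cell receptor subunits Cd3e and Cd3g were at -0.14 and -0.20. Foxp3, which defines regulatory T cells, was at 3.56 FPKM on day 14, against 3.19 FPKM on day 6. Of 6 mast cell markers 5 were at least 2-fold lower, such as Cpa3 (-1.44). Interferon-stimulated genes were all at least 2-fold lower, 16 of 16 with a median of -3.36 (vehicle -1.31, 12 of 16). Their summed FPKM was 467 on day 6 and 54.3 on day 14 with vemurafenib, and 141 and 52.9 with vehicle. Rsad2, the antiviral protein viperin, was at 224, 13.3 and 0.473 FPKM on days 2, 6 and 14. Cxcl10, an interferon-induced T cell attractant, fell with -4.22 (limma adjusted p = 0.0232) as 1 of 6 in the list that fell. Of 14 acute-phase and antimicrobial genes 7 were at least 2-fold lower and 1 at least 2-fold higher (median -0.99, vehicle -1.02). Saa3, a serum amyloid that stood at 1059 FPKM on day 6, had a log2 ratio of -5.79, Slpi, a protease inhibitor, fell with -2.94, and Hp, haptoglobin, was at 234 FPKM on day 14, against 135 FPKM on day 6.

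**Figure D4:**
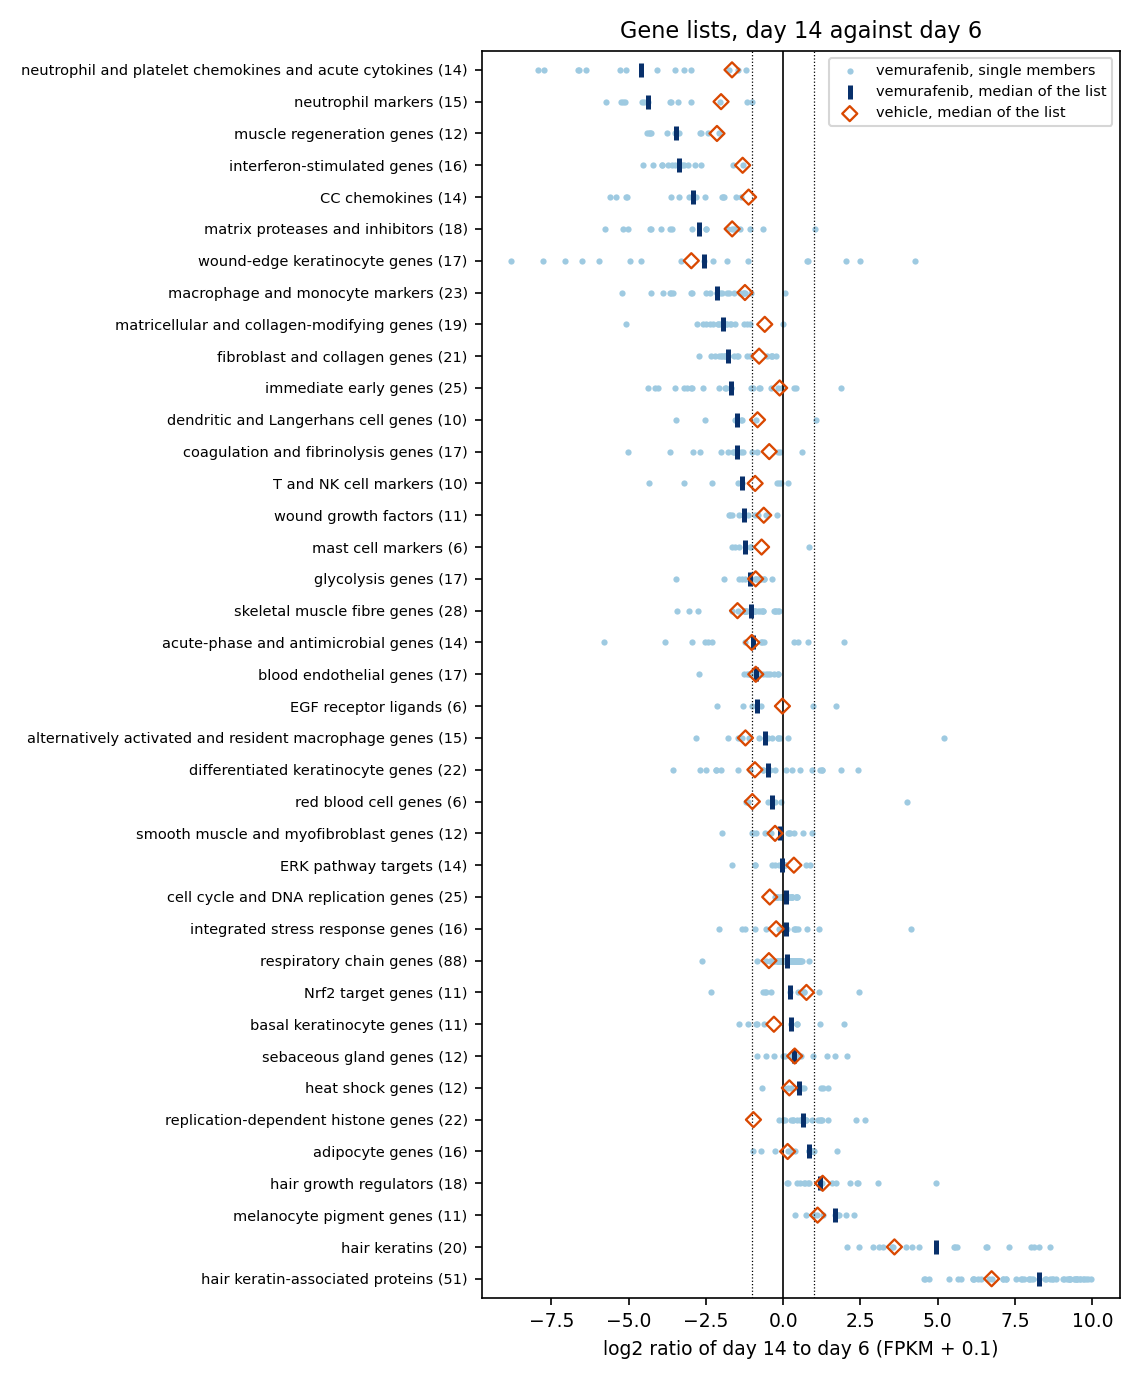
Each row is a gene list with its number of members past the filter in brackets, and the x axis is the log2 ratio of day 14 to day 6. Small points are single members and bars list medians with vemurafenib, open diamonds list medians with vehicle, and dotted lines 2-fold. Acute cytokines lie at -4.59 with vemurafenib, keratin-associated proteins at 8.27 and cell cycle genes at 0.09.

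Genes that respond to ERK signalling showed 2 patterns. Immediate early genes, induced within minutes by growth factors, stress or tissue handling, had a median of -1.70 (vehicle -0.11), and 15 of 25 were at least 2-fold lower on day 14 than on day 6 (vehicle 6 of 25). Their summed FPKM was 2411 on day 6 and 884.5 on day 14 with vemurafenib, and 978 and 829 with vehicle. Fos, a subunit of the AP-1 factor, was at 331, 113 and 6.25 FPKM on days 2, 6 and 14 with vemurafenib, and at 241, 17.4 and 5.19 FPKM with vehicle. Nr4a1, an orphan nuclear receptor, was at 8.39 FPKM on day 14, against 177 FPKM on day 6 (log2 ratio -4.39, vehicle -1.42). Egr1, a zinc finger factor, was at 45.8 FPKM on day 14, against 149 FPKM on day 6 (-1.70, vehicle 0.14). None of the 25 fell in the common fit, where Fos had a limma adjusted p of 0.052, and Dusp2, a phosphatase, rose (log2 ratio 1.87, vehicle 2.14). Targets that follow steady ERK activity had a median of -0.04 (vehicle 0.35). Dusp6, the ERK phosphatase, was at 34.4 FPKM on day 14, against 32.9 FPKM on day 6, Spry1, a feedback inhibitor, was at 15.9 FPKM on day 14, against 15.1 FPKM on day 6, and Ccnd1, cyclin D1, was at 29.9 FPKM on day 14, against 30.6 FPKM on day 6. Of the 14 only Spred3 was at least 2-fold apart (-1.65).

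Ligands of the EGF receptor, which activates ERK in keratinocytes, went in both directions. Tgfa rose, at 12.0 FPKM on day 14, against 3.64 FPKM on day 6 (log2 ratio 1.70, vehicle 2.11, limma adjusted p = 0.0403). Hbegf (-2.13) and Areg (-1.30) were lower on day 14, and Epgn was at 4.58 FPKM on day 14, against 9.26 FPKM on day 6. The promoter of Fos is shown as that of the best known immediate early gene: 150 bases before the start at chr12:85473740-85473889, plus strand of GRCm38.p6, with the TATA box and an E-box (CAGCTG) in capitals. The E-box was found in 18.2% of windows of genes past the filter and 18.3% of all.
Fos: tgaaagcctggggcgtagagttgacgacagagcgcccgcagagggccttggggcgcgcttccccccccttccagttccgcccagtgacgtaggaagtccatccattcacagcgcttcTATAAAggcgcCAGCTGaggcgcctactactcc

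Genes of the granulation tissue were lower on day 14. All 21 fibroblast and collagen genes were lower and 16 at least 2-fold (median -1.78, vehicle -0.78, 6 of 21), with a summed FPKM of 3369 on day 14 and 10320 on day 6 (vehicle 4981 and 7282). Col1a1, the main chain of type I collagen, was at 102, 3026 and 820 FPKM on days 2, 6 and 14 with vemurafenib, and at 173, 2169 and 1026 FPKM with vehicle. Col3a1, the type III chain abundant in young scars, was at 542 FPKM on day 14, against 1535 FPKM on day 6 (-1.50, vehicle 0.26). Col5a3, a minor fibrillar chain, fell as the only one of the list (-2.72, limma adjusted p = 0.0182). Dcn and Dpt, small matrix proteins of mature dermis, were at -0.53 and -0.39, and Fap at -0.22.

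Matricellular and collagen-modifying genes were lower in 19 of 19, in 18 at least 2-fold (median -1.94, vehicle -0.60, 9 of 19). Spp1, osteopontin, was at 4.21 FPKM on day 14, against 147 FPKM on day 6, and fell (log2 ratio -5.09, limma adjusted p = 0.0329). Cthrc1, a secreted protein of wound fibroblasts, fell with -2.27, and P4ha2, which hydroxylates collagen, with -2.12. Postn, periostin, was at 113 FPKM on day 14, against 274 FPKM on day 6 (-1.27, vehicle 0.68). The exception was Ctgf, at 25.6 FPKM on day 14, against 25.8 FPKM on day 6.

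Of 18 matrix proteases and inhibitors 16 were at least 2-fold lower (median -2.72, vehicle -1.65, 13 of 18) and 9 fell in the common fit. Mmp13, a collagenase, was at 0.119 FPKM on day 14, against 11.7 FPKM on day 6 (-5.75, limma adjusted p = 0.00261). Timp1, an inhibitor of such enzymes, was at 12.6 FPKM on day 14, against 248 FPKM on day 6, and it fell (log2 ratio -4.29, vehicle -2.87, limma adjusted p = 0.0119). Timp3 was the exception, at 69.1 FPKM on day 14, against 33.8 FPKM on day 6 (1.03, vehicle 1.65). Mmp2, a gelatinase, had a log2 ratio of -1.39.

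Contractile, vascular and growth factor lists had medians nearer 0 than the collagen, matricellular and matrix protease lists. Smooth muscle and myofibroblast genes had a median of -0.11 (vehicle -0.26), with Acta2, the actin of myofibroblasts, at 53.2 FPKM on day 14, against 104 FPKM on day 6, and Tagln at 84.5 FPKM on day 14, against 66.7 FPKM on day 6. Of 17 blood endothelial genes all were lower and 6 at least 2-fold (median -0.87, vehicle -0.89, 7 of 17). Apln, a peptide of sprouting tip cells, had the lowest ratio (-2.72), while Pecam1 was at 16.3 FPKM on day 14, against 34.7 FPKM on day 6. Wound growth factors had a median of -1.26 (vehicle -0.63), and 7 of 11 were at least 2-fold lower (vehicle 3 of 11). Tgfb3 (-1.75) and Vegfa (-1.65) were lower, and Pdgfa was at -0.56. No member of these 3 lists except Des, a muscle filament (-1.97, limma adjusted p = 0.0322), passed the common fit. Coagulation and fibrinolysis genes had a median of -1.50 (vehicle -0.45), and 12 of 17 were at least 2-fold lower. Their ratios ran from -5.005 to 0.61, and 2 of the 17 fell in the common fit. The tissue factor pathway inhibitors Tfpi (-2.00) and Tfpi2 (-2.91) were among the 12.

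In the epidermis, genes of the wound edge went in both directions. Of 17 wound-edge keratinocyte genes 12 were at least 2-fold lower and 3 at least 2-fold higher on day 14 than on day 6 (median -2.56, vehicle -2.97), and 9 fell and 1 rose in the common fit. Krt6b, a keratin of activated keratinocytes, was at 625, 368 and 0.727 FPKM on days 2, 6 and 14 (log2 ratio -8.80, vehicle -9.40, limma adjusted p = 0.000566). Its partner Krt16 was at 32.8 FPKM on day 14, against 1021 FPKM on day 6 (-4.96, vehicle -6.18). Krt6a, which the follicle's companion layer also makes, was at 232 FPKM on day 14, against 508 FPKM on day 6 (-1.13, vehicle -2.97). Krt17, which follicles and wounded epidermis both make, was at 2583 FPKM on day 14, against 634 FPKM on day 6 (2.03, vehicle 0.02).

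Cornified envelope genes of the wound edge also differed among themselves. Sprr2d (-7.77) and Sprr2e (-5.96) fell, and Sprr1a was at 2852 FPKM on day 14, against 515 FPKM on day 6 (2.47, vehicle 1.39). Sprr2f (0.79, vehicle -2.14) and Sprr2h (0.81, vehicle -0.59) had opposite signs in the arms, and since Sprr2 genes are near copies their values are uncertain. The stefins Stfa1 and Stfa3, protease inhibitors, fell with -7.06 and -6.51 and share that limit. S100a7a, the mouse psoriasin, rose, at 62.1 FPKM on day 14, against 3.12 FPKM on day 6. Il1f6, interleukin 36 alpha, fell with -4.61. The AP-1 letters TGANTCA were found in 8 of 12 wound-edge windows (66.7%), in 7.1% of windows of genes past the filter and in 8.97% of all. They were not particular to this list. The share was 58.3% for coagulation and fibrinolysis genes, 45.5% for the acute cytokine list and 41.7% for matrix proteases and inhibitors. For hair keratins and for immediate early genes it was 0%.

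**Figure D5:**
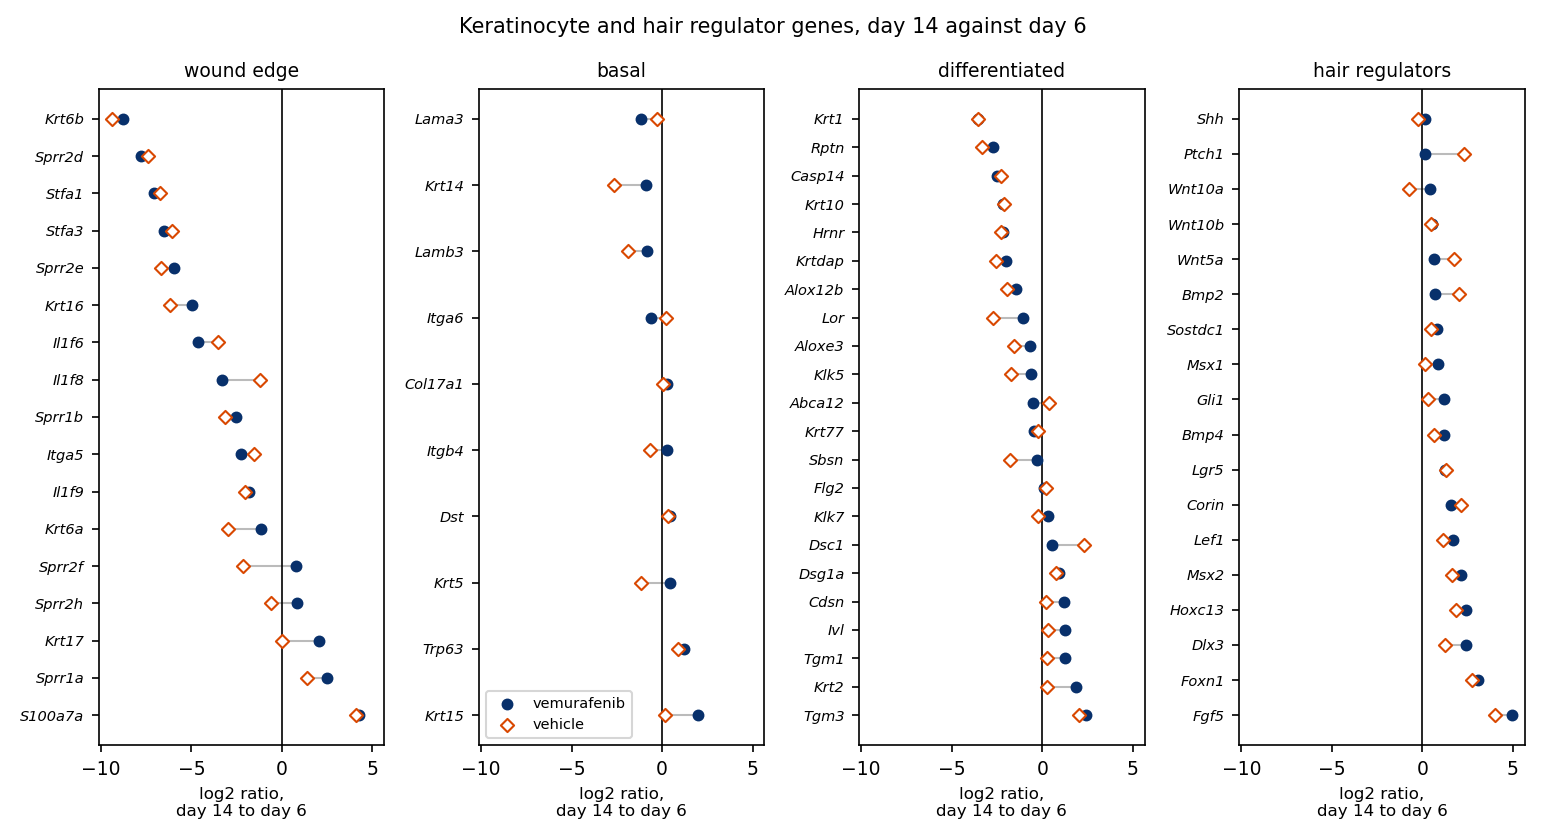
Log2 ratios of day 14 to day 6 for single genes of 4 lists (1 basal gene is not shown), for vemurafenib (filled circles) and vehicle (open diamonds), 1 library per side. Krt6b lies at -8.80 with vemurafenib and -9.40 with vehicle, Krt17 at 2.03 with vemurafenib and 0.02 with vehicle, and Krt15 at 1.98 with vemurafenib and 0.18 with vehicle.

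Basal keratinocyte genes had a median of 0.25 with vemurafenib and -0.30 with vehicle, with 6 of 11 higher and 5 lower with vemurafenib. At least 2-fold higher were 2, at least 2-fold lower 2, and 1 fell in the common fit. Krt14, the partner of Krt5, was at 1692 FPKM on day 14, against 3090 FPKM on day 6 (-0.87, vehicle -2.64), and Lama3, a laminin chain, had a log2 ratio of -1.15. Krt5 was at 4608, 1439 and 1977 FPKM on days 2, 6 and 14 with vemurafenib, and at 4675, 3259 and 1436 FPKM with vehicle. Krt15, a keratin of follicle stem cells and resting basal cells, was at 528 FPKM on day 14, against 133 FPKM on day 6 (1.98, vehicle 0.18). Differentiated keratinocyte genes split, with 8 of 22 at least 2-fold lower and 5 at least 2-fold higher. Krt1, the keratin of spinous cells, fell, at 89.5 FPKM on day 14, against 1057 FPKM on day 6 (-3.56, vehicle -3.55, limma adjusted p = 0.0336), and Krt10, its partner, had -2.17. Tgm3, a transglutaminase that hair also uses, was at 35.2 FPKM on day 14, against 6.43 FPKM on day 6 (2.44), and Flg2, a relative of filaggrin, was at 8.76 FPKM on day 14, against 8.14 FPKM on day 6.

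Cell division genes hardly differed between the days. None of 25 cell cycle and DNA replication genes was at least 2-fold apart with vemurafenib, and the log2 ratios ran from -0.25 to 0.46 with a median of 0.09 (vehicle -0.44, 2 at least 2-fold lower). Mki67 was at 10.9 FPKM on day 14, against 8.98 FPKM on day 6, Top2a at 22.6 FPKM on day 14, against 21.2 FPKM on day 6, and Birc5, survivin, at 56.8 FPKM on day 14, against 63.4 FPKM on day 6. With vehicle Birc5 had a log2 ratio of -1.50 and Plk1, a mitotic kinase, -1.16. The limma common fit called none of the 25. After scaling all libraries to 1 total the vemurafenib median became -0.12.

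The full-thickness samples also held skeletal muscle. Muscle regeneration genes were all at least 2-fold lower on day 14 than on day 6, 12 of 12 with a median of -3.48 (vehicle -2.14, 10 of 12), and 7 fell in the common fit. Myog, the factor that drives myoblast differentiation, was at 92.9, 47.3 and 4.06 FPKM on days 2, 6 and 14 (log2 ratio -3.51, vehicle -2.34, limma adjusted p = 0.00925). Myh3, the embryonic myosin of newly made fibres, was at 0.446 FPKM on day 14, against 11.1 FPKM on day 6, and Chrng, the fetal subunit of the acetylcholine receptor, was at 0.696 FPKM on day 14, against 16.9 FPKM on day 6, and both fell. Actc1, an actin of developing muscle, was at 10.05 FPKM on day 14, against 199 FPKM on day 6 (-4.30, vehicle -0.68). Genes of mature fibres had smaller ratios: 15 of 28 were at least 2-fold lower (median -1.03, vehicle -1.48, 23 of 28). Acta1, skeletal actin, was at 2096 FPKM on day 14, against 3518 FPKM on day 6, and Ckm, muscle creatine kinase, at 631 FPKM on day 14, against 1003 FPKM on day 6. The summed FPKM of the fibre genes was 8736 on day 14 and 16320 on day 6, and the part of muscle in the sample in the regeneration result was not tested.

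Among the metabolic and stress lists, glycolysis genes had the lowest median. Of 17 glycolysis genes all were lower and 9 at least 2-fold (median -1.06, vehicle -0.89). Slc16a3, the lactate exporter, and Slc2a1, the glucose carrier, fell with -3.48 and -1.93. Of 88 respiratory chain genes 64 were higher and 24 lower with vemurafenib (median 0.12, vehicle -0.46), and the only one at least 2-fold apart was Ndufa4l2, a hypoxia-induced relative of a chain subunit, which fell with a log2 ratio of -2.64 (vehicle -2.58). Heat shock genes had a median of 0.52 (vehicle 0.20), with Hspb1, a small chaperone that keratinocytes make, at 1404 FPKM on day 14, against 575 FPKM on day 6. Integrated stress response genes had a median of 0.09 (vehicle -0.23). In that list Chac1, which degrades glutathione, was at 112 FPKM on day 14, against 6.26 FPKM on day 6, and rose (4.14, vehicle 3.97, limma adjusted p = 0.0021), whereas Trib3 fell (-1.34). Gdf15, a stress cytokine, was at 4.36, 4.14 and 1.70 FPKM on days 2, 6 and 14 with vemurafenib, and at 8.50, 1.86 and 0.185 FPKM with vehicle. Nrf2 targets had a median of 0.22 (vehicle 0.75). Hmox1, the haem-degrading enzyme among them, was at 72.6 FPKM on day 14, against 363 FPKM on day 6 (-2.32, vehicle -0.74). Adipocyte genes had a median of 0.84 (vehicle 0.14), with Cfd, adipsin, at 809 FPKM on day 14, against 242 FPKM on day 6, and Adipoq at 91.4 FPKM on day 14, against 50.6 FPKM on day 6.

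Of the 15 genes with the lowest ratios, Spink7, a protease inhibitor of squamous epithelium, stood first: it was listed at 0 FPKM on day 14, against 57.2 FPKM on day 6, and with vehicle it was listed at 0 FPKM on day 14, against 261 FPKM on day 6. 2610528A11Rik fell with a log2 ratio of -6.42 (vehicle -6.38). BC100530, which lies beside the stefins on chromosome 16, was at 5.08 FPKM on day 14, against 972 FPKM on day 6, and fell. Gm5483, of the same cluster, was listed at 0 FPKM on day 14, against 9.91 FPKM on day 6. Rps27, a ribosomal protein with near-identical copies in the genome, was at 309, 3206 and 21.2 FPKM on days 2, 6 and 14 with vemurafenib and at 964, 405 and 662 FPKM with vehicle. Gm7367 was at 0.00487 FPKM on day 14, against 7.94 FPKM on day 6, and had a ratio of 1.34 with vehicle. The values of both are uncertain because reads can be shared with copies elsewhere.

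The makeup of the samples differed in other ways between the days. Of 6 red blood cell genes past the filter 2 were at least 2-fold lower (median -0.38, vehicle -0.997), with a summed FPKM of 274 on day 14 and 581 on day 6. Slc4a1, the anion exchanger of red cells, rose, at 4.51 FPKM on day 14, against 0.186 FPKM on day 6. Of 22 replication-dependent histone genes 7 were at least 2-fold higher (median 0.63, vehicle -0.96), such as Hist1h3c at 1.59 FPKM on day 14, against 0.169 FPKM on day 6. Histone transcripts of this class mostly lack the poly(A) tail by which these libraries were selected, and their copies share reads. The part of sample makeup in the results above was not tested.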

How the data were processed

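The deposited table holds 1 FPKM value per gene and library, made by the authors with TopHat and TopHat2, Cuffnorm and Cuffdiff on mm9, as the submitters' processing notes name them. Tool versions are not given in the sources used here. The labels call the reads single-end and the control arm untreated, whereas the study's methods describe paired-end reads and a vehicle. All 6 columns were used and 0 left out. Of 23940 genes, 27 rows whose symbol had become a date were left out, and 13392 genes that averaged 1 FPKM or more were kept. Ratios are log2((FPKM + 0.1) of day 14 over that of day 6), which understates the change of low genes.

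With 1 library per group the vemurafenib course has no replicate check, and no p-value was computed for it. Changes common to both arms were fitted with limma 3.58.1 (R 4.3.3) on log2(FPKM + 0.1) with terms for day and arm, a mean-variance trend and Benjamini-Hochberg adjustment over all genes. Other steps used Python 3.11.15, numpy 2.4.6, pandas 2.3.3 and matplotlib 3.10.9, and the scripts were tested on simulated data. Positions came from GENCODE M1 (mm9, 92.3% of genes past the filter matched) and promoter windows from RefSeq (GRCm38.p6).

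Named were the 15 highest and 15 lowest ratios among genes averaging 5 FPKM or more, leaving out small RNA and histone genes, up to 5 members per list with the largest ratios, up to 2 defining members, and Gdf15. Other genes named were chosen after their values were seen, and some genes are not reported here. Members and lists were chosen with earlier results of these data known. Alternatives were other pseudocounts (1 and 0.01 FPKM), filters, scalings, fits and leaving out each library.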

Additional observations from a re-analysis of the deposited data

Results flagged for a closer look

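The log2 ratio of day 14 to day 6 had opposite signs with vemurafenib and with vehicle in the medians of 6 lists. These medians were -0.043 with vemurafenib and 0.346 with vehicle for ERK pathway targets, 0.091 and -0.435 for cell cycle and DNA replication genes, and 0.247 and -0.300 for basal keratinocyte genes. They were 0.117 with vemurafenib and -0.461 with vehicle for respiratory chain genes, 0.092 and -0.227 for integrated stress response genes, and 0.633 and -0.961 for replication-dependent histone genes. In all 6 lists the sign of the vemurafenib median changed under at least 1 alternative processing. That of respiratory chain genes ran from -0.098 to 0.169, and that of basal keratinocyte genes from -0.031 to 0.299. Among 714 list members and the named genes, 13 were at least 2-fold apart in opposite directions. Ccl17 was at -3.033 with vemurafenib and 1.384 with vehicle, Mmp12 at -2.482 and 1.441, and Thbs1, a matricellular protein, at -1.077 and 1.363. Serpinb2, an inhibitor of plasminogen activators, was at -1.789 with vemurafenib and 1.914 with vehicle, Defb4, a defensin, at 1.974 and -1.637, and Gm7367 at -6.261 and 1.336. The other 7 were histone genes, namely Hist1h1e (1.443 with vemurafenib and -2.450 with vehicle), Hist1h2ag (1.218 and -2.490), Hist1h2bj (1.206 and -1.020), Hist1h3c (2.652 and -2.418), Hist1h4h (1.240 and -1.983), Hist2h2bb (2.354 and -1.947) and Hist2h4 (1.123 and -1.361). Each value rests on 1 library per side, and the difference between the arms was not tested.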

How the results depend on the processing

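No paired analysis was possible because each group had 1 library and the labels carry no replicate numbers. With a mean of at least 5 FPKM, 1924 genes were at least 2-fold apart with vemurafenib, 651 higher and 1273 lower, with fewer genes tested. Limma called 488 genes, 166 with no filter on low values, 748 after rescaling without the 100 most abundant genes and 820 with the day 6 and day 14 libraries alone. Leaving out 1 library gave 0 to 826 calls: 0 without vemurafenib day 14, 0 without vehicle day 14, 324 without vemurafenib day 6, 796 without vemurafenib day 2, 820 without vehicle day 2 and 826 without vehicle day 6. At an unadjusted p under 0.05, limma had 2569 genes without vemurafenib day 14 and 1411 without vehicle day 14. The cause was not tested. Of 39 lists, 22 had a median at least 2-fold from 0, and all 22 kept its sign under every alternative run, while 8 lists of smaller medians changed sign under at least 1. Of 390 alternative list medians 17 moved by more than 1.5-fold or changed sign, as did 250 of 6314 alternative ratios of 714 single genes. The depth behind each FPKM is unknown, so the precision of low values, such as those under 1 FPKM, cannot be given.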

Other observations

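The genes given here lie outside the lists and were chosen after their values were seen, so that they are no support for any result. Tchh, trichohyalin of the inner root sheath, was at 1114 FPKM on day 14, against 33.2 FPKM on day 6 (log2 ratio 5.06, vehicle 3.60, limma adjusted p = 0.00652). Padi3, an enzyme that converts arginines of trichohyalin to citrulline, had a log2 ratio of 3.65 and its relative Padi1 4.52. S100a3, a calcium-binding protein of the hair cuticle, was at 2670 FPKM on day 14, against 233 FPKM on day 6. Krt75, the keratin of the companion layer, rose with 3.32.

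Il1rl1, the receptor of a cytokine released from damaged epithelium, was at 0.329 FPKM on day 14, against 16.99 FPKM on day 6 (log2 ratio -5.32, vehicle -2.45, limma adjusted p = 0.027), and it fell. Il24, a cytokine that acts on keratinocytes, was listed at 0 FPKM on day 14, against 4.49 FPKM on day 6. Its neighbours Il19 and Il10 had log2 ratios of -3.26 and -3.19. Has1, a hyaluronan synthase, had -4.65, and the adjacent formyl peptide receptors Fpr1 and Fpr2 of phagocytes had -4.38 and -4.50. Tnnc1, a troponin of slow and regenerating muscle, fell with -4.80, and Myl4, a myosin light chain of embryonic muscle, with -4.08.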
